A study of Mus musculus with 12 samples.

Results

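The genes described here are 41 markers of neurons and of their synapses: parts of the neuronal cytoskeleton, neuronal RNA-binding and other identity proteins, proteins of synaptic vesicle release, postsynaptic scaffolds and kinases, neurotransmitter and neurotrophin receptors, and a pair of secreted proteins. They were taken by name from a list that was drawn up with earlier results of these data known, and no threshold on a measured value was applied. All 41 were found among the 25239 genes of the expression table. The samples were HT22 cells, an immortalised line of mouse hippocampal origin labelled wild type. One group had been exposed to 800 μM mesaconitine (MA), a diterpenoid alkaloid of Aconitum plants, for 72 h, and the other was the control without MA. MA was dissolved in DMSO, and the sources used here do not say whether the control received DMSO alone. Each group gave 3 input and 3 anti-m6A immunoprecipitated (IP) libraries, 12 in all. The labels do not say whether the 3 libraries of a group came from separate cultures, and all of them came from 1 cell line.

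A neuron is recognised by a shared set of proteins. Microtubule proteins such as MAP2, tau (Mapt) and class III tubulin (Tubb3) and the neurofilaments shape axons and dendrites. SNARE proteins fuse synaptic vesicles with the membrane, and scaffolds such as PSD-95 (Dlg4) hold AMPA and NMDA receptors opposite the release site. In hippocampal neurons these genes are usually active together. N6-methyladenosine (m6A) is a methyl mark on adenosines within mRNA, and an antibody against it enriches the marked fragments over input.

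The level of each gene is its base mean, the mean count over libraries after division by a size factor. It covers control and MA cells together, so it describes the cell line and not the response to MA. From the steps in the smallest base means it was computed over 6 libraries whose size factors ran from 0.938 to 1.108, so that 1 count in 1 library adds 0.150 to 0.178. The 6 libraries were taken to be the input libraries, and which of them is control or MA is not given. A gene was counted as expressed at a base mean of at least 10. Of 41 members, 16 reached it (39.0%), beside 49.3% of all genes in the table and 56.5% of the coding genes. Another 12 members lay between 0 and 10, and 13 were listed at 0 (31.7%, beside 35.9% of all genes and 31.4% of the coding genes). A listed 0 does not show absence, since 103 of 2643 m6A peaks, which hold reads, lie on genes listed at 0. With these, 188 peaks lie on genes with a base mean under 10. Of 42 genes that most cells use, 0 were listed at 0, and the lowest was Gapdh at 893.1, against 54350 for Actb. Of the 50-base stretches of the Gapdh transcript 82.5% occur in other genes too. Whether this lowered its count was not tested. For counting error alone, a base mean of 0.499 is the limit that 3 counts over the 6 libraries allow for a gene with none. It does not bound reads that were not counted for a gene. Dlg2, which is not a member, was listed at 0.658 although its m6A peak held 163 input reads. The table holds no spread between libraries for a base mean, so no error is given with it.

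**Figure D1:**
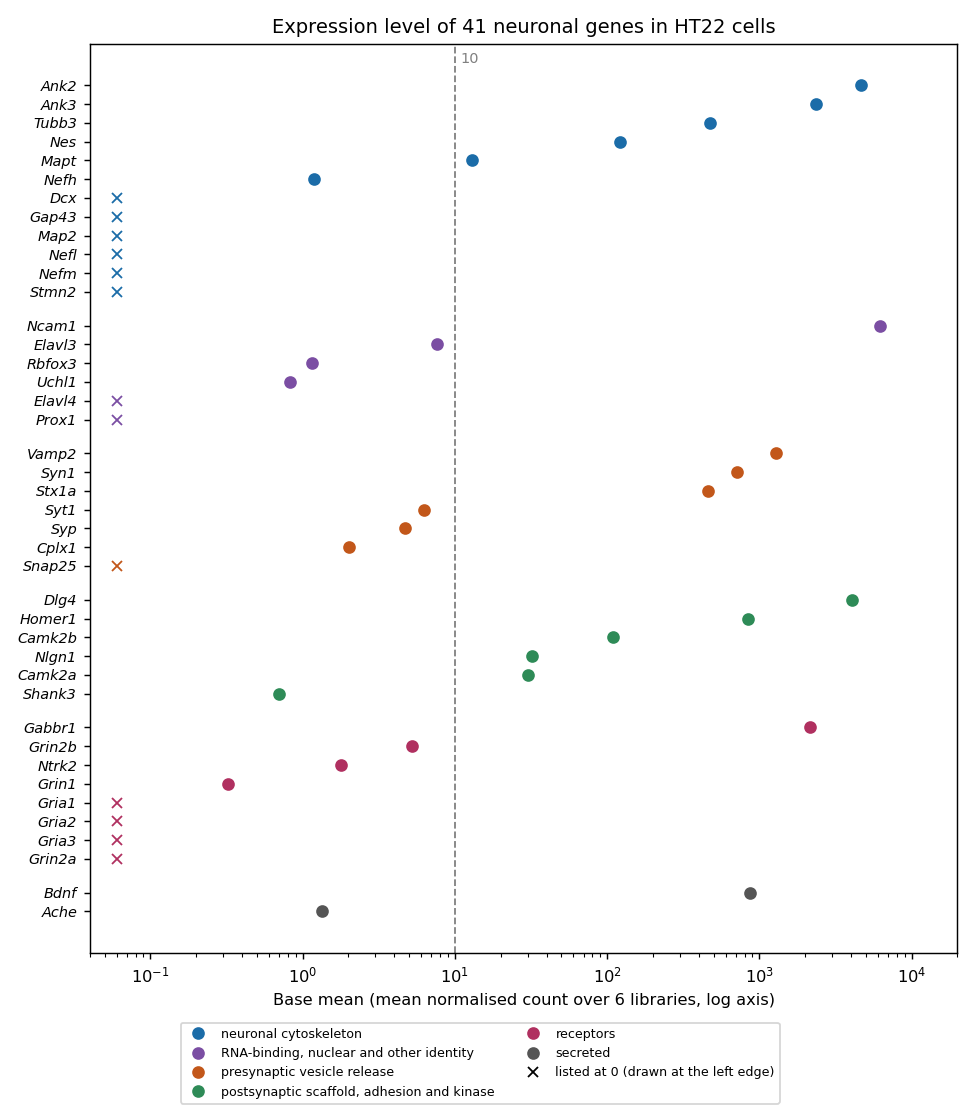
Base mean of the 41 neuronal genes on a log axis, grouped by role. Each point is 1 gene, crosses are genes listed at 0, and the dashed line is a base mean of 10. The highest points are Ncam1 at 6225 and Ank2 at 4659, and each group except the postsynaptic and the secreted genes has crosses at 0.

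The 12 cytoskeletal members split into extremes. Ank2 and Ank3, the ankyrins B and G that tie membrane proteins to the spectrin skeleton, stood at base means of 4659 and 2352. Tubb3 followed at 473.4. Nes, the intermediate filament of neural progenitors, was at 121.0, and Mapt, the axonal microtubule protein tau, at 12.9. The neurofilament heavy chain gene Nefh had a base mean of 1.18, which is 7 counts in 1 of the 6 libraries. The other 6 were listed at 0. They are Map2, the dendritic microtubule protein, Nefl and Nefm, the light and medium neurofilament chains, Dcx, the microtubule protein of migrating young neurons, and the growth cone genes Stmn2 and Gap43.

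Among the 6 identity genes, Ncam1 was far above the rest. It encodes the neural cell adhesion molecule, which glia and several other tissues also make. Its base mean was 6225, rank 1444 of the 25239 genes and the highest of all 41 members. Elavl3, a neuronal RNA-binding protein of the Hu family, had a base mean of 7.64, with counts in 5 of the 6 libraries and 12 at most. Rbfox3, the NeuN antigen by which mature neurons are stained, was at 1.15, which is 7 counts in 1 library. Uchl1, an abundant neuronal deubiquitinase, was at 0.822, from 5 counts in 1 library. Elavl4, another Hu protein, and Prox1, a transcription factor of dentate granule cells, were listed at 0.

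Of the 7 genes of vesicle release, 3 were expressed. Vamp2, the SNARE of the vesicle membrane, had a base mean of 1279. Syn1, which tethers vesicles to actin, was at 710.0, and Stx1a, a SNARE of the plasma membrane, at 460.4. Snap25, the SNARE that pairs with these in neurons, was listed at 0. The calcium sensor Syt1 was at 6.22 with counts in 3 of the 6 libraries, and its counts there were 9, 14 and 16. The vesicle membrane protein Syp was at 4.70, from 28 counts over 4 libraries. Cplx1, which clamps the SNARE complex, was at 2.03, from 13 counts in 2 libraries. So 2 of the 3 SNARE genes on the list were above 460, and Snap25 was listed at 0.

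The postsynaptic group had the largest share of expressed genes, 5 of 6 (83.3%), and none of its genes was listed at 0. Dlg4, the PSD-95 scaffold, had a base mean of 4073. Homer1, which links metabotropic glutamate receptors to the scaffold, was at 848.1. Camk2b and Camk2a, subunits of the calcium- and calmodulin-dependent kinase II, were at 108.5 and 30.1. Nlgn1, the adhesion partner of neurexins, was at 32.2. Shank3, a scaffold of excitatory synapses, was at 0.698, from 4 counts in 1 library.

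The receptors those scaffolds hold were near or at 0. The 3 AMPA receptor subunits on the list, Gria1, Gria2 and Gria3, were listed at 0, as was the NMDA receptor subunit Grin2a. Grin1, the subunit that every NMDA receptor needs, was at 0.323, from 2 counts in 1 library. Grin2b was at 5.24, and its 32 counts fell as 10 and 22 in only 2 of the 6 libraries. Gabbr1, a subunit of the metabotropic GABA receptor, was the exception at 2152. Gabbr2, the gene of its other subunit and not a member, was listed at 0. Of the secreted proteins, the neurotrophin Bdnf was at 874.1, while its receptor Ntrk2 was at 1.78, from 11 counts in 1 library. Ache, the acetylcholinesterase that clears acetylcholine, was at 1.34, from 8 counts spread over 4 libraries.

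The low members were unevenly spread over libraries. Of the 12 between 0 and 10, 6 had all their counts in 1 library, with 2 to 11 counts there, 3 had counts in 2 or 3 libraries and 3 in 4 or 5. Among all genes, 1348 had counts in 1 library only, and the most frequent number was 4 counts, for 403 genes, against 154 genes with 1 count. A count of a few in 1 library may therefore not be that many separate fragments, which was not tested. A base mean under 10 is close to the limit of detection here, and differences among these members are not read.

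Levels can be compared between genes only per length, so each base mean was divided by the length in kb of the gene's longest coding transcript. On this scale the 16 expressed members ran from 2.46 for Mapt to 948 for Ncam1, with a median of 215. Ncam1 was followed by Dlg4 at 644, Vamp2 at 580, Gabbr1 at 410 and Ank2 at 326. Tubb3 at 253, Ank3 at 236, Syn1 at 218, Stx1a at 213 and Bdnf at 205 lay close together, and no error is available that would separate them. Homer1 stood at 148, Camk2b at 27.0 and Nes at 19.7, while Camk2a, Nlgn1 and Mapt were under 10. Among all genes above 0 with an annotated length, 10 of the 16 lay above the 50th percentile per kb and 3 below the 25th. The median of the 16 was at percentile 51.7, close to the middle of all genes above 0. That reference also holds genes under the base mean of 10 that the 16 had to reach. Among genes with a base mean of at least 10, the median of the 16 was at percentile 37.6. There only Ncam1, Dlg4, Vamp2 and Gabbr1 lay above the 50th. All 41 members together made up 0.0612% of the summed base means, and 4 of them, Ncam1, Ank2, Dlg4 and Ank3, held 70.8% of that share.

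Transcript length matters most for the ankyrins. The coding transcript used for Ank2 is 14305 bases, and the merged exons of all its transcripts are 35004 bases, which lowers its level per kb from 326 to 133. For Ank3 the level per kb fell from 236 to 67.5, and its percentile from 53.2 to 40.7. Sequence shared with other annotated transcripts was looked up only for genes with a base mean of at least 10. How reads that match several genes were counted is not given in the sources used here, and their effect on the levels was not tested. Of the 50-base stretches of Dlg4 transcripts 2.26% occur in another gene, and in the other 15 expressed members at most 0.386% do. Among the relatives compared below the share was 36.5% for Stmn1 and 27.4% for Uchl3, and at most 6.20% for the other expressed ones. Exons of another gene on the opposite strand cover 14.4% of the exonic bases of Bdnf and 9.16% of those of Nlgn1. Among the members under 10 the widest such overlaps were 32.8% for Nefl, 19.2% for Nefm, 18.1% for Uchl1, 16.8% for Syp and 13.5% for Grin1. The libraries were made with a stranded kit, and whether the counting used the strand is not given in the sources used here.

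Many of these genes have a close relative, often one that cells of many types use, and 22 pairs were set side by side per kb. The pairs draw on 17 relatives, since Vim, Map4 and Elavl1 each serve more than 1 member, so they are not separate comparisons. Among the relatives, Dlg1, Homer3, Stmn1, Syt11 and Cplx2 are also on the list of other synapse and neuron genes below. The relative was higher in 21 of 22 pairs. For the 9 pairs with an expressed member the fold ran from 1.71 to 2540 with a median of 31.1, and 6 of the 9 exceeded 10-fold. Divided by merged exons instead, the folds ran from 2.17 to 1230, and 5 of the 9 exceeded 10-fold. The closest pairs were synaptic. Vamp3, the widely used vesicle SNARE, was 1.71-fold above Vamp2 per kb. Dlg1, the SAP97 scaffold, was 2.42-fold above Dlg4, and Homer3 was 2.74-fold above Homer1. Stx4a, the syntaxin of constitutive secretion, exceeded Stx1a by 10.7-fold, or 8.16-fold with merged exons. With merged exons Homer3 was 4.36-fold above Homer1.

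The gap was wider for kinases and cytoskeleton. Camk2g was 31.1-fold above Camk2b per kb, and Camk2d was 133-fold above Camk2a (48.9-fold with merged exons). Tubb5, a widely expressed β-tubulin, was 94.7-fold above Tubb3. Map4, the microtubule protein of non-neuronal cells, had a level of 2848 per kb, 1160-fold that of Mapt (668-fold with merged exons), while Map2 was listed at 0. Vim, the intermediate filament of mesenchymal and many dividing cells, stood at 50186 per kb, 2540-fold above Nes (1230-fold with merged exons).

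For 6 further pairs the neuronal gene was listed at 0 and the relative was well measured. Snap23, which replaces SNAP-25 in non-neuronal exocytosis, was at 1175 per kb and Stmn1 at 11264, against listed zeros for Snap25 and Stmn2. In another 6 pairs the neuronal gene lay under a base mean of 10. Rbfox2 was at 1249 per kb where Rbfox3 was at 0.365. Elavl1, the ubiquitous HuR, was at 548 per kb where Elavl3 was at 1.52, and Uchl3 was at 947 per kb where Uchl1 was at 0.698. The exception among the 22 pairs was Ache, whose relative Bche was listed at 0.

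**Figure D2:**
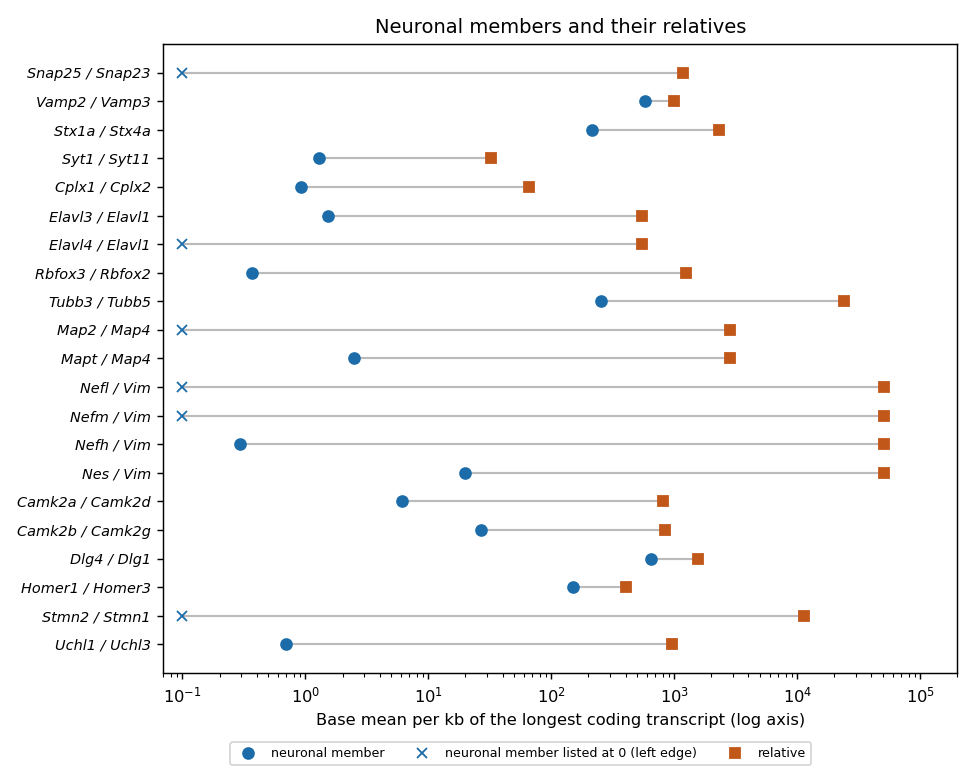
Base mean per kb of the longest coding transcript, on a log axis, for 21 neuronal genes (blue, crosses where listed at 0) and a relative of each (orange). Every relative lies to the right of its neuronal partner, by 1.71-fold for Vamp2 and Vamp3 and by 2540-fold for Nes and Vim. The pair of Ache and Bche is left out because Bche is at 0.

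A wider set of 71 other synapse and neuron genes, none of them a member, was counted in the same way. Of these, 27 had a base mean of at least 10 (38.0%), and 23 were listed at 0 (32.4%), beside 49.3% and 35.9% of all genes. The 27 include 5 genes used above as relatives, Dlg1, Homer3, Stmn1, Syt11 and Cplx2. Summed per kb the set reached 22598, against 4248 for the 41 members. By base mean the highest were Map1b at 20301, Map1a at 14042 and Stmn1 at 11939, named here after their values were seen. Per kb they stood at 1719, 1187 and 11264, so that Stmn1 was above both on that scale. Map1a and Map1b encode microtubule proteins abundant in neurons, and Stmn1 encodes a microtubule-destabilising protein of dividing cells as well as neurons.

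The labelled origin of the cells was checked against markers of 7 cell types. The mature neuron list shares 8 of its 10 genes with the members. Of 10 mature neuron markers, 3 had a base mean of at least 10, namely Tubb3, Syn1 and Camk2a, and 4 were listed at 0. Slc17a7, the vesicular glutamate transporter of hippocampal pyramidal neurons, was at 0.853, and Gad1, the GABA-synthesising enzyme, was listed at 0. The defining neuronal markers Rbfox3, Map2, Nefl and Snap25 were at 0 or near it. Of the neural progenitor markers reported here Nes alone was above 0, with Sox2, Pax6, Hes5 and Fabp7 listed at 0.

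Markers of fibroblasts and mesenchyme gave the opposite picture. Of 10, 9 had a base mean of at least 10 and 8 of at least 1000. The highest was Vim at 50186 per kb, which is not particular to mesenchyme. Fn1, fibronectin, stood at 34420 per kb, Col3a1 at 24228, Col1a2 at 24214 and Col1a1 at 16890. Summed over its 10 genes that list reached 153850 per kb, or 103670 without Vim, against 479 for the 10 mature neuron markers and 4248 for all 41 members. The exceptions were Lum at a base mean of 1.35 and Dcn at 145. Of 6 astrocyte markers 3 reached a base mean of 10, the glutamate transporters Slc1a3 at 1140 and Slc1a2 at 115 and the calcium-binding protein S100b at 15.9, while Gfap was at 0.646 and Aqp4 was listed at 0. Olig1, Olig2, Sox10 and Mog, which define oligodendrocytes, were listed at 0. No endothelial marker of 5 reached a base mean of 10, and of 6 microglial markers Tmem119 at 303 and Aif1 at 64.3 did. The measured transcripts thus hold few of the defining markers of neurons. A gene listed at 0 was given no count in any of the 6 libraries, which were taken to be the inputs of both conditions. A listed 0 does not show absence, so presence in either condition is not settled by it. Whether the listed zeros belong to the line or to these cultures cannot be told apart.

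**Figure D3:**
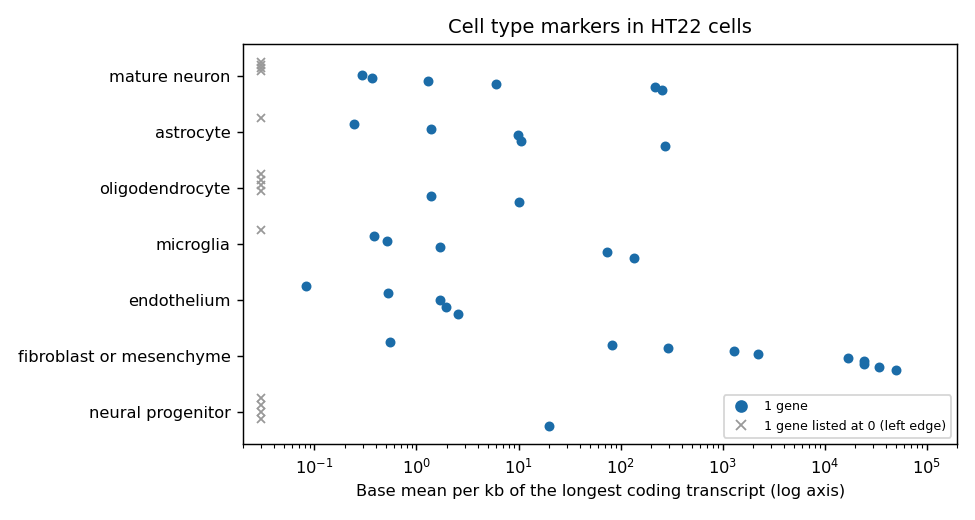
Base mean per kb, on a log axis, for marker genes of 7 cell types. Each point is 1 gene and grey crosses are genes listed at 0. Of 10 fibroblast or mesenchyme markers, the highest is Vim at 50186 and 4 collagen and fibronectin genes lie between 16890 and 34420, whereas the highest mature neuron marker, Tubb3, is at 253.

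REST is a zinc-finger repressor that silences neuronal genes in non-neuronal cells with the partners RCOR, SIN3A, LSD1 (Kdm1a) and histone deacetylases. All 7 genes of this complex on the list were expressed, with base means from 2074 for Rcor2 to 14391 for Hdac2. Rest itself was at 7226, or rank 1183 of all genes. Their part in the levels of the neuronal genes was not tested.

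The effect of MA on m6A was read from the reads of each peak, which the authors pooled over the 3 libraries of a group. Each condition is then 1 sample for each kind of library, so there is no replicate check, no test and no p-value. Intervals are 95% and cover counting error only. Of 2643 peaks, 6 lay on 5 of the 41 members, which are 12.2% of the members against 8.39% of all genes. Among expressed members 4 of 16 had a peak, and 15.6% of all genes at a base mean of at least 10 did. Of the 6 members above a base mean of 1000, Ank2, Ank3, Gabbr1 and Vamp2 had peaks (66.7%, against 17.4% of all such genes), while Ncam1 and Dlg4, at 6225 and 4073, had none. The fifth gene was Elavl3, whose base mean was under 10.

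The preferred site of the m6A writer is the 5-base motif RRACH, in which R is a purine and H is any base but G. It stands for 12 different 5-base sequences and was searched on the transcript strand only, since the mark is on RNA. It was found in 4 of the 6 member peaks, beside 63.5% of the 2520 peaks that could be placed on a transcript of the named gene, and in 47.8% of peaks of 50 bases. In each of these 4 peaks a match that begins with GGAC was present. The windows of 30 transcript bases below are centred on that match, which is in capitals. They were read from the spliced transcript sequences of GENCODE M21, whose coordinates are on mm10 (GRCm38). They are shown because they are the motif matches nearest the centre of each member peak.
Ank2 exons 3 to 5: ctgcaatcagaatGGACTcaatgctctcca
Ank2 exons 11 to 12: cccttgctggcgaGGACCaagaatgggctg
Elavl3 exon 1: ccgccctcgatacGGACCgcgcccgccggg
Gabbr1 exon 4: tcctgacgggtggGGACCtcccagctctgg
The peaks on Ank3 and Vamp2 hold no RRACH. A match is a description of the sequence and not a mapped site.

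The 6 peaks differ in place. Both Ank2 peaks lie in the coding sequence on the minus strand, one at chr3:127077556-127104766 over exons 3 to 5 of 46 and the other at chr3:127032274-127038756 over exons 11 and 12. These spans include introns, and the exonic parts are 150 and 50 bases. The Ank3 peak at chr10:69973892-69976055 on the plus strand joins exons 30 and 31 of 43, with 50 exonic bases in the coding sequence. The Gabbr1 peak at chr17:37048461-37048510, plus strand, is in coding exon 4 of 23. The Elavl3 peak at chr9:22051597-22051671, minus strand, is in exon 1 of 7, and all but 2 of its 75 bases are in the 5′ UTR. The Vamp2 peak at chr11:69090743-69090792, plus strand, has its middle 104 bases past the end of the coding sequence, in the 3′ UTR and the last of 5 exons. So 4 of the 6 were in coding sequence, 1 in a 5′ UTR and 1 in a 3′ UTR. In mammalian mRNA the mark is known for its density around stop codons.

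The IP share is the percentage of IP reads among the IP and input reads of a peak in 1 condition. It depends on the depth of the libraries, so it does not give enrichment on an absolute scale. In control cells the share ranged from 40.7% on Ank2 exons 11 to 12 to 52.9% on Vamp2. Of the 6 log2 ratios of IP to input, 4 lay below the median peak, which was itself at -0.062. In MA cells the shares ranged from 57.9% on Vamp2 to 74.5% on Gabbr1. Over all peaks the ratio of IP to input rose by a median of 0.91 on the log2 scale, which is 1.88-fold, and library sizes are not known for these pooled reads. Changes below are therefore relative to the median peak. A peak was called at more than 1.5-fold, which 27.9% of all peaks exceeded upward and 25.9% downward.

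Gabbr1 showed the widest gain. Its peak held 73 input and 56 IP reads in control cells and 36 and 105 in MA cells. The IP share was 43.4% (34.7 to 52.4) in control and 74.5% (66.4 to 81.4) in MA cells, with intervals that did not overlap. The same held for 4 of the 6 peaks, those on Gabbr1, Ank2 and Ank3, before the median rise of all peaks was taken off. How many of all peaks had such a gap was not counted, so this is not read as a trait of the members. Without scaling, 64.4% of all peaks were more than 1.5-fold higher. Relative to the median peak the Gabbr1 change was 1.02 on the log2 scale (0.23 to 1.81), or 2.02-fold higher after MA. Its raw input reads fell and its raw IP reads rose after MA, as did the sums over all peaks. Relative to the median peak, the log2 change after MA was -0.547 for its input reads and 0.441 for its IP reads.

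Both peaks on Ank2 moved the same way. The peak over exons 11 to 12 had 159 input and 109 IP reads in control and 108 and 243 in MA cells. Its IP share went from 40.7% (34.7 to 46.8) to 69.2% (64.1 to 74.0), a relative log2 change of 0.80 (0.30 to 1.30), or 1.75-fold. The peak over exons 3 to 5 had 189 input and 143 IP reads in control and 156 and 319 in MA cells. Its share went from 43.1% (37.7 to 48.6) to 67.2% (62.7 to 71.4), and its relative log2 change of 0.52 (0.09 to 0.96), 1.44-fold, was under the 1.5-fold threshold. These peaks are on 1 gene and share its libraries, so they are not replicates. Ank3, the other ankyrin, had 76 input and 63 IP reads in control and 54 and 102 in MA cells. Its IP share went from 45.3% (36.9 to 54.0) to 65.4% (57.4 to 72.8), and its relative log2 change was 0.28 (-0.44 to 0.99), an interval that holds 0.

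Elavl3 and Vamp2 were less certain. Elavl3 had 41 input and 41 IP reads in control and 15 and 43 in MA cells, and its relative log2 change was 0.61 (-0.52 to 1.77), or 1.52-fold, just past the threshold with an interval that holds 0. Its 56 input reads in the peak exceed the 45.84 normalised counts listed for the whole gene over the 6 libraries if those are the input libraries. The same held for every gene on the other lists that had a peak and a base mean under 10. Input reads against gene counts were 163 and 3.946 for Dlg2, 195 and 27.88 for Syn3, and 195 and 14.71 for Tek. They were 87 and 10.47 for Rbfox1, and 30 and 5.919 for Nrxn3. The cause was not tested, and a low base mean can leave out reads that are present. Vamp2 had 56 input and 63 IP reads in control and 45 and 62 in MA cells. Its IP share moved the least of the 6, from 52.9% (43.6 to 62.2) to 57.9% (48.0 to 67.4). Relative to the median peak this was a log2 change of -0.62 (-1.43 to 0.19), or 1.54-fold lower. Without scaling to the median peak the Vamp2 change was 0.29 and all 6 peaks were positive.

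**Figure D4:**
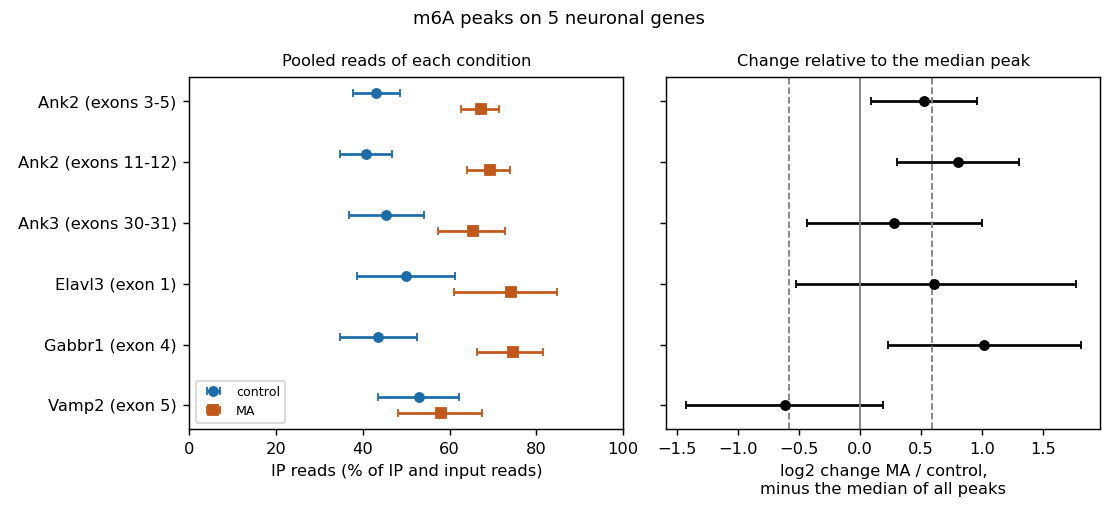
Left, IP reads as a percentage of IP and input reads in control (blue) and MA cells (orange). Right, the log2 change of IP over input after MA minus the median of 2643 peaks, with dashed lines at 1.5-fold. Bars are exact 95% intervals for counting error. Gabbr1 at 1.02 and Ank2 exons 11 to 12 at 0.80 lie highest and Vamp2 at -0.62 lowest.

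In all, 3 of the 6 member peaks were called higher, on Ank2, Elavl3 and Gabbr1, and 1 lower, on Vamp2, beside the 27.9% and 25.9% of all peaks. The median change of the 6 was 0.57 relative to the median of all peaks, and 6 peaks on 5 genes are too few to set them apart from the rest. Of the 71 other synapse and neuron genes 9 carried a peak (12.7%). Of their 11 peaks 1 was called higher and 6 lower, and the difference from the members was not tested.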

How the data were processed

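HT22 cells, MA and control, gave 12 libraries (3 input and 3 IP in each group). The authors cleaned the reads (fastp), mapped them to the mm10 genome (HISAT2), estimated expression (StringTie) and tested groups (DESeq2), and exomePeak2 gave the peaks. Versions, and whether molecular identifiers were used to remove duplicates, are not given in the sources used here. For each gene the authors deposited a base mean, which is a normalised signal: counts are divided by size factors and averaged over libraries. The counts of reads per peak were deposited by the authors as sums over the libraries of each group, so depth per library is unknown. Other columns hold the authors' own comparisons (fold changes, errors, test statistics, p-values and modification scores) and were not used, so changes in expression are not analysed here. The number of columns of single libraries left out is 0.

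The summed reads in peaks were 288659 in the input and 267002 in the IP of control cells, and 214778 and 359889 after MA. Lengths, exons and coordinates came from GENCODE M21 on GRCm38 (24366 of 25239 genes matched by symbol). Each peak was placed on a transcript of its named gene whose exons hold both ends, coding ones first, and for spans over 1000 bases on the one with the fewest exonic bases. Shares have exact Clopper-Pearson intervals, and changes have the exact conditional interval of the odds ratio minus the median change. Counts per library of low genes were solved from the steps of the base means. Python 3.11.15, numpy 2.4.6, pandas 2.3.3 and scipy 1.17.1 were used, and both calculations were tested on simulated data. For the counts per library, the simulated totals were mostly lower than those solved for Elavl3, Syt1, Grin2b and Syp. The tolerance for rounding used for these 4 genes also differed from the simulated setting. Members and lists were chosen with earlier results of these data known. All members are given, those at a base mean of at least 10 singly, with every peak on a member. The alternatives were other thresholds, lengths and scalings. A neural progenitor marker of the list is not reported here.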

Additional observations from a re-analysis of the deposited data

How the results depend on the processing

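No paired analysis was possible because the tables hold no values of single libraries, and for the same reason no replicate could be left out. With a base mean of at least 1, 25 members counted as expressed (58.9% of all genes did), and with at least 100, 13 did (41.4% of all genes), against 16 at 10. Over genes with a base mean of at least 10 the expressed members' median percentile per kb was 37.6 in place of 51.7, since the low genes leave the comparison. Merged exon lengths left 21 of 22 relatives higher but moved 4 of the 9 folds with an expressed member by over 1.5 times, as given beside them. On the member peaks, 3 higher and 1 lower became 5 and 0 without scaling, where 64.4% of all peaks were higher and 7.91% lower, and Vamp2 turned to 0.29, because the median rise of all peaks is then kept. They became 3 and 0 with scaling by sums over all peaks (29.7% and 23.9% of all peaks). At 1.2-fold they were 5 and 1 (39.4% and 38.4%), and at 2-fold 1 and 0 (16.7% and 14.7%). With at least 20 reads in each group they were 2 and 0 (24.0% and 22.2% of the 1925 peaks left), and with a pseudocount of 1 they were 2 and 1 (27.2% and 25.6%). Gabbr1 alone passed at 2-fold. Elavl3, with 15 MA input reads, was left out under the read minimum. The calls on Elavl3 and Vamp2, at 1.52-fold and 1.54-fold, rest on these choices. Pooled reads limit every m6A value to counting error.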
